A study of Mus musculus with 2 samples.

Results

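The distal chromatin around 15 genes of the lung stroma was examined in nuclei of the fetal mouse lung. A distal region was a peak of accessible chromatin that overlapped a peak of the other library, lay within 100 kb of the transcription starts of 1 of the 15 genes and lay more than 1 kb from the starts of every annotated gene. The 15 genes were Tbx4, Tbx5, Tcf21, Foxf1, Meox2, Wnt2, Fgf10, Pdgfra, Col1a2, Acta2, Myh11, Hhip, Pdgfrb, Notch3 and Trpc6. The rule found 142 peaks in each library, which joined into 141 shared regions, out of 101838 shared regions in all and 73846 shared distal regions. Within reach of the 15 genes there were 250 PBS peaks and 226 OVA peaks. Of these, 61 and 37 overlapped no peak of the other library, and 47 in each library were too near a gene start.

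Both the RNA and the open chromatin of each nucleus had been read, in fetal lungs taken on gestation day 18. Wild-type C57BL/6J mothers were sensitized with PBS in alum or with ovalbumin (OVA) in alum, mated with untreated males, and given PBS or OVA through the nose during gestation. The PBS library pooled 9 fetuses of a control mother and the OVA library pooled 8 fetuses of an OVA-asthmatic mother, so each group is 1 library and 1 litter. Before nuclei were isolated, 3 populations had been sorted and mixed, namely epithelial cells by EpCAM, immune cells by CD45 and, among the latter, group 2 innate lymphoid cells (ILC2s). Stromal cells belong to none of these sorted populations, yet nuclei with stromal RNA made up 34.0% (PBS) and 35.5% (OVA) of those kept. How these nuclei passed the sort was not tested, and they need not represent all stromal cells of the lung.

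The lung stroma holds fibroblasts, myofibroblasts and smooth muscle cells, and pericytes, and it carries the transcription factors and secreted signals that shape the airways and alveoli beside it. Such genes are often controlled from enhancers, stretches of open chromatin at a distance from the gene start where transcription factors bind, and an enhancer may skip the nearest gene. Accessibility therefore shows where chromatin is open in a cell type, but not which gene a region acts on.

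Sequences are shown for a stretch inside a distal region and for gene starts that carry the stromal pattern. The first is the coding exon held by the distal region 10.5 kb downstream of the Tbx5 start (chr5:119844743-119845703, GRCm38), a region with counts in 5 of the 6 stromal sums and at most 1.89 CPM in the other gates. This is exon 6 of Tbx5 at chr5:119844965-119845117 on the plus strand, 153 bases of coding sequence from GENCODE M21. The others are the 250 bases before the RefSeq start (GRCm38.p6) of Meox2 and Trpc6, which had no distal member and were open at the start itself, and of Tcf21 and Fgf10. These 4 starts had the lowest mean accessibility outside the stroma of the 14 genes with a shared region at the start. The windows are chr12:37108290-37108539 on the plus strand for Meox2, chr9:8543892-8544141 on the plus strand for Trpc6, chr10:22820144-22820393 on the minus strand for Tcf21 and chr13:118714449-118714698 on the plus strand for Fgf10. All are given 5′ to 3′, with capitals marking the letters of a searched motif.
Tbx5 exon 6: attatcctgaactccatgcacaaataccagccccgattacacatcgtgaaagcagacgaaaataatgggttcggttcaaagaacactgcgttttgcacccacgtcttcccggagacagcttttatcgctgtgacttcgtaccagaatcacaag
Meox2 promoter: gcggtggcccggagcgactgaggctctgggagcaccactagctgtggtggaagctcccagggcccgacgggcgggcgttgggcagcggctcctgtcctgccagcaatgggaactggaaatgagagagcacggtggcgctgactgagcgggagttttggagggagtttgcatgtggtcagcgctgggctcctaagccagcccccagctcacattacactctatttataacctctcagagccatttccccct
Trpc6 promoter: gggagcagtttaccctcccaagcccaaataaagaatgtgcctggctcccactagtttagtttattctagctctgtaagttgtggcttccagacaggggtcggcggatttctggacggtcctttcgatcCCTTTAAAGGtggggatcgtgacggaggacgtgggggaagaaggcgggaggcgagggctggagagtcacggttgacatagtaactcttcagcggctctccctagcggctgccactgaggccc
Tcf21 promoter: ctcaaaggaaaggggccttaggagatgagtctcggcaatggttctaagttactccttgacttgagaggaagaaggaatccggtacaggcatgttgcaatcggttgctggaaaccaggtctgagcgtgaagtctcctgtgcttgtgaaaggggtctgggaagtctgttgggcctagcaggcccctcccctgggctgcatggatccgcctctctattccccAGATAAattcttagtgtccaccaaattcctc
Fgf10 promoter: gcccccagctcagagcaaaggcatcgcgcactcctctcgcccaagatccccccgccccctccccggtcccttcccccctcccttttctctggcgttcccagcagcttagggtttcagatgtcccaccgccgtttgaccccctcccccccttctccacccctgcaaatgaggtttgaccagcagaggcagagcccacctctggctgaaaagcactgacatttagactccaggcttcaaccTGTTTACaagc

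Of the 15 genes, 11 had a window in the RefSeq table. Motifs were searched on both strands as exact letters. They were the T-box GGTGTGA, the forkhead TGTTTAC, the E-box CAGCTG, the homeobox TAATTA, AP-1 TGAGTCA, TEAD GGAATG, RBPJ GTGGGAA, GLI TGGGTGGTC, the NFI half-site TTGGCA, PU.1 GAGGAAGT, the GATA factor motif AGATAA and the CArG box of serum response factor. The capitals in Tcf21 are the GATA letters, which 9.99% of 32851 RefSeq promoter windows held. Those in Fgf10 are the forkhead letters, held by 3.17% of windows, and those in Trpc6 are a CArG box, held by 1.47%. No searched motif was in the Tbx5 exon or the Meox2 window, and a match or its absence is a description of these letters alone.

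At the Trpc6 start, a calcium channel gene of pericytes, accessibility was 40.9 (PBS) and 57.3 CPM (OVA) in the pericyte gate. CPM here are transposition counts per 1000000 counts in shared regions. The fibroblast gate had 3.85 and 3.86 CPM there, near the AT2 gate with 2.27 and 3.16, and the AT1 gate had 0 in both libraries. At the Meox2 start, a mesenchymal homeobox gene, the fibroblast gate had 16.7 and 16.1 CPM and the ILC2 gate 0 in both. The myofibroblast gate had 21.3 and 1.64 CPM there, the AT2 gate 4.16 and 1.26 and the AT1 gate 3.82 and 3.14. At the start of Fgf10, the growth factor that drives lung budding, the fibroblast gate had 11.0 and 14.8 CPM and the pericyte gate 0 and 3.44. At the start of Tcf21, a basic helix-loop-helix factor of lung fibroblasts, the fibroblast gate had 20.2 and 21.7 CPM, and the AT1 gate 0 in both. Each of these starts was open in at least 1 stromal gate in both libraries.

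After filters on genes and mitochondrial RNA and the removal of doublets, 4279 of 8019 PBS barcodes and 4996 of 5960 OVA barcodes were kept, and the libraries shared 54 barcodes. Nuclei were gated by RNA marker panels that held none of the 15 genes. The gates held 871 PBS and 1181 OVA nuclei for fibroblasts, 96 and 76 for myofibroblasts or smooth muscle, and 80 and 114 for pericytes. A further 409 and 404 nuclei with stromal RNA met none of these 3 definitions and entered no comparison. The other gates were alveolar type 2 (AT2) cells with 459 and 314 nuclei, alveolar type 1 (AT1) cells with 132 and 228, macrophages with 289 and 388, and ILC2s with 265 and 447. Counts in shared regions ranged from 523825 to 8300066 per gate and library, so that 1 count was worth between 0.120 and 1.91 CPM. A fragment with both ends in a region gives a pair of counts, so low values of the small gates rest on very few fragments. The panel of 10 stromal genes summed to between 2674 and 6087 CPM of RNA in the stromal gates and to between 53.9 and 421 CPM in the others. The AT2 panel summed to between 321 and 540 CPM in the stromal gates, against up to 23303 CPM in the AT2 gate. A UMI of Sftpc, the surfactant gene of AT2 cells, was found in between 26.0% and 45.6% of stromal-gate nuclei and in 18.3% (PBS) and 19.8% (OVA) of macrophage-gate nuclei. The part of this RNA from other cells in the chromatin values was not tested.

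All 141 regions passed the minimum of 30 counts, with between 31 and 1107 counts and a median of 152. In position, 73 were intergenic, 60 had their middle in an intron and 8 in an exon. The body of the locus gene held 26 of them, and for 54 the locus gene was the nearest annotated start. Their median length was 931 bp, beside 941 bp for all shared distal regions. The regions were divided unevenly, with 22 each around Pdgfrb and Notch3, 18 around Tbx4, 14 around Acta2, 11 around Myh11, 9 each around Tbx5, Pdgfra and Col1a2, 8 each around Tcf21 and Foxf1, 6 around Wnt2, 4 around Hhip and 1 around Fgf10.

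Of the 141 regions, 43 were more accessible in the stromal gates than in the other gates and 1 was less accessible, and 97 did not pass the test. The test was edgeR's quasi-likelihood test on sums per gate and library, with Benjamini-Hochberg adjustment over all 97750 regions tested. It averages log values over gates, so a region open in 1 gate and at 0 in others may not pass. The share higher among these regions was 30.5%, beside 13.1% of all distal regions tested. The share lower among all distal regions was 9.41%. The median log2 difference was 0.73 (quartiles -0.38 and 2.66), beside -0.35 (quartiles -1.86 and 0.99) for all distal regions. The same rule applied to genes of the alveolar epithelium found 17 of 129 regions higher and 16 lower. Around myeloid genes 14 of 123 regions were higher and 15 lower, and around ILC2 genes 2 of 88 were higher and 13 lower. The windows of Pdgfrb and the myeloid gene Csf1r overlap, so regions there entered both sets. In 20 of the 141 regions every stromal value was above every value of the other gates, beside 3.11% of all distal regions, and all 20 were among the 43. When a gate required 90% of panel UMIs, 15 of 120 tested regions were higher, and of the 44 calls 27 were lost and 2 could not be tested. The gates were then smaller, with 15 (PBS) and 14 (OVA) myofibroblast nuclei. The share of all distal regions higher at this setting was not computed, so the 13.1% is no background for it. Several of the stromal calls described below were lost at 90%. These were at 23.3 kb upstream and 10.5 kb downstream of Tbx5, and 41.9 kb upstream and 98.7 kb downstream of Tbx4. Others were 38.7 kb downstream of Wnt2, 54.3 kb downstream of Pdgfra, and 88.0 and 17.0 kb upstream of Col1a2. Further ones were 90.2 kb upstream of Acta2 and 61.5 kb upstream of Myh11. The rest were 55.8 kb upstream and 9.4 kb downstream of Pdgfrb, and 75.4 kb downstream of Notch3. The calls below for myofibroblasts or pericytes among the stromal gates were also lost or could not be tested at 90%.

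The gate with the highest mean accessibility was the fibroblast gate for 35 regions, the myofibroblast gate for 25 and the pericyte gate for 25. It was the macrophage gate for 27, the ILC2 gate for 17, the AT2 gate for 9 and the AT1 gate for 3. The highest gate was the same in both libraries for 92 regions. It was stromal in both libraries for 73 regions and not stromal in either for 52. These 52 regions near stromal genes were thus most open in another cell type in both libraries, as the plot of all regions by gate shows. The highest gate was not counted for all distal regions, so these numbers have no background. A small gate can also be highest on very few counts.

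**Figure D1:**
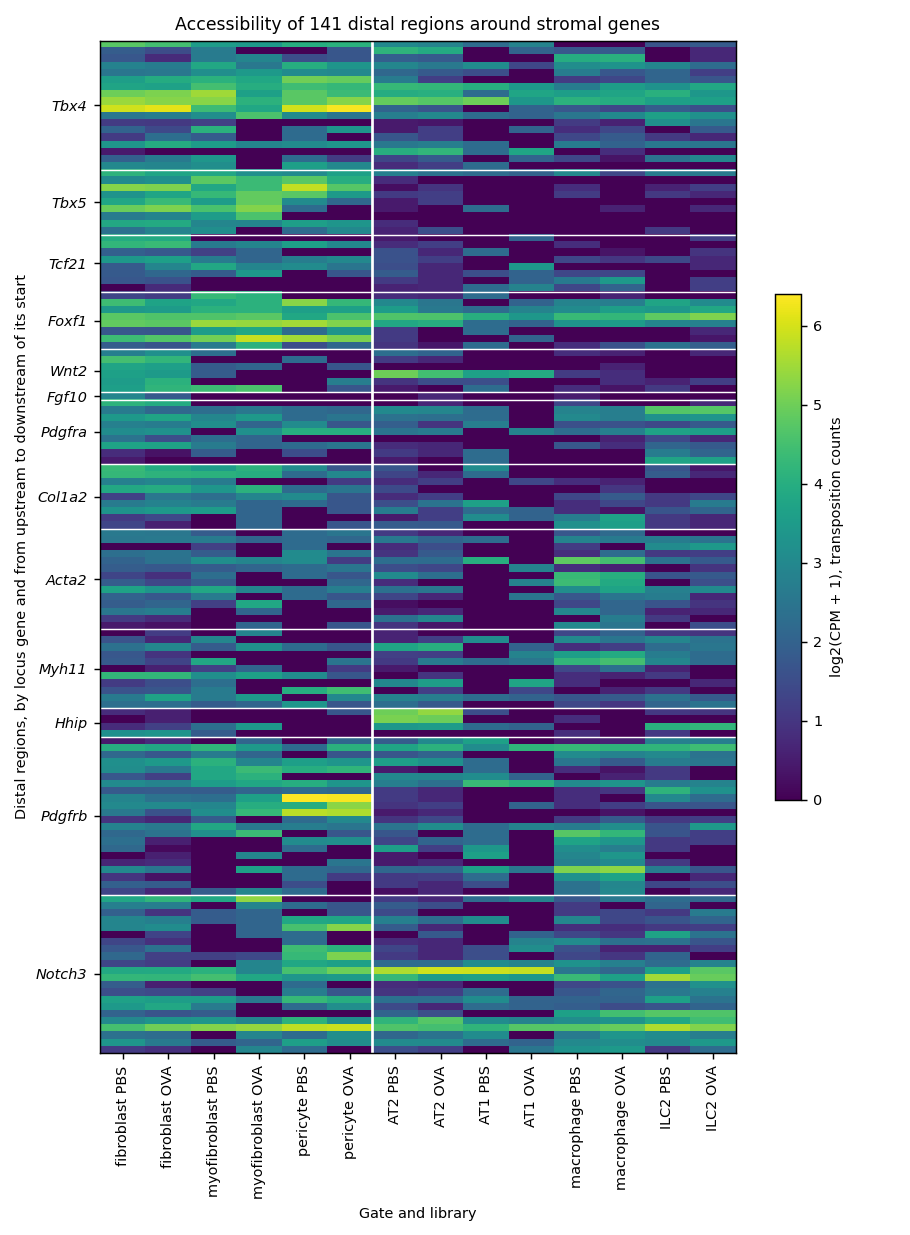
Accessibility of the 141 distal regions (rows, by locus gene and from upstream to downstream of its start) in the 7 gates of both libraries (columns), as log2(CPM + 1). Most rows of Tbx5 are brighter in the 6 stromal columns than in the other 8. Dark cells lie at 21.0 kb upstream in pericytes, at 23.3 kb upstream in OVA pericytes and at 10.5 kb downstream in OVA myofibroblasts. Some rows of Hhip are brightest in the AT2 columns, and several rows of Acta2 and Pdgfrb in the macrophage columns.

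**Figure D2:**
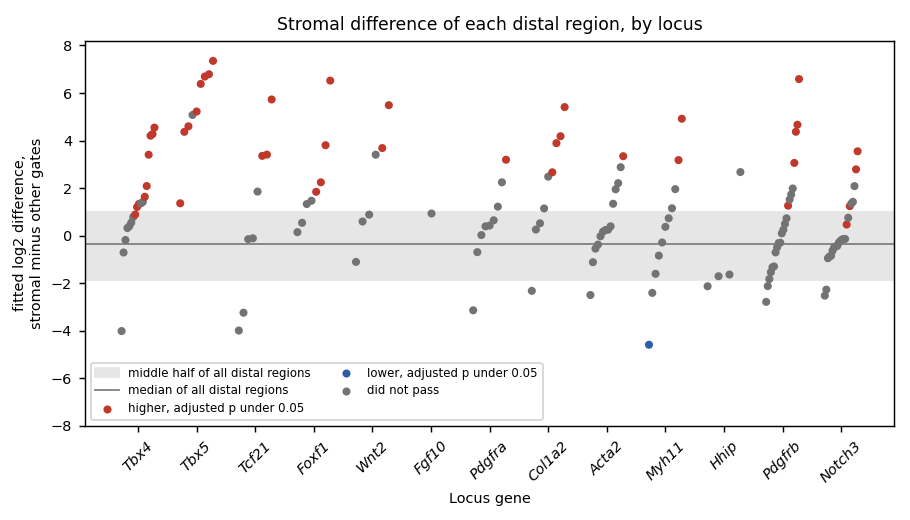
Fitted log2 difference of each distal region, stromal minus other gates, by locus gene. Red points are higher and the blue point lower at an adjusted p under 0.05 (edgeR's quasi-likelihood test), grey points did not pass, and the band spans the quartiles of all distal regions (-1.86 and 0.99) around their median of -0.35. Tbx5 has 8 of 9 points in red, and Hhip and Fgf10 have none.

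Around the transcription factor genes, 24 of 43 regions were higher in the stromal gates and none was lower, beside 13.1% and 9.41% of all distal regions. The transcription factor group thus held most of the 43 higher regions. Tbx5 and Tbx4 are closely related T-box factors that act together in the lung mesenchyme, Tcf21 specifies fibroblasts, and Foxf1 is a forkhead factor downstream of Hedgehog signalling. Summed over its regions, the Tbx5 locus had a log2 ratio of stromal over other gates of 3.96 (PBS) and 4.54 (OVA). The ratios were 2.06 and 1.47 for Tcf21, 1.55 and 1.65 for Foxf1, and 1.31 and 1.21 for Tbx4. All distal regions together gave -0.15 and -0.10. Each of the 4 loci was above that background in both libraries. As means of both libraries the ratios moved with the choice of regions. For Tbx5 the ratio was 5.37 within 50 kb (4.25 in the full window), for Tcf21 2.49 (1.76) and for Foxf1 1.13. More than 5 kb from every gene start it was 2.94 for Foxf1 and 0.74 for Tbx4 (1.26 with all regions).

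Around Tbx5, 8 of 9 regions were higher in the stromal gates. The largest difference was 90.7 kb upstream (chr5:119743390-119744422, intergenic). Accessibility there was 7.31 (PBS) and 8.31 CPM (OVA) in fibroblasts, 26.7 and 19.7 in myofibroblasts, and 26.0 and 14.9 in pericytes. The AT2 gate had 0.76 and 0 CPM, and the AT1, macrophage and ILC2 gates had no count in either library. The fitted log2 difference was 7.35 ± 0.82 (SE, adjusted p = 5.49e-17), and the groups did not overlap. A fitted difference against sums at 0 depends on the prior count of the fit and is no bound. The nearest start to this region is Tbx3os2, a noncoding gene on the side of the related factor Tbx3.

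Other regions of Tbx5, chosen for description after their values were seen, differed among the stromal gates. The region 58.0 kb upstream was open in all 3, at 36.6 and 34.9 CPM in fibroblasts, 13.3 and 19.7 in myofibroblasts and 55.8 and 25.2 in pericytes, with at most 1.26 CPM in any other sum. The region 23.3 kb upstream reached 29.8 and 34.2 CPM in fibroblasts and 22.7 and 36.1 in myofibroblasts, but 3.72 and 0 in pericytes. Its pericyte difference from the other stromal gates was -4.46 on the log2 scale (adjusted p = 5.24e-04). Upstream regions of Tbx5 thus took different patterns within the stroma. The region 21.0 kb upstream had no count in pericytes or in any other gate outside the stroma, and 103 counts in fibroblasts and myofibroblasts. Pooled over the stromal gates it was at least 44.4-fold higher than a floor of 3 counts over the other gates, but its adjusted p was 1, since the contrast averages log values over gates and the pericyte sums were at 0. Within the gene, the region holding exon 6 shown above had 4.23 and 6.27 CPM in fibroblasts, 8.00 and 0 in myofibroblasts and 3.72 and 6.88 in pericytes, with at most 1.89 CPM in the other gates (4.60 ± 1.07, adjusted p = 2.06e-04).

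Around Tbx4, 9 of 18 regions were higher in the stromal gates. The region with the largest called difference lay 98.7 kb downstream (chr11:85995031-85995951, intergenic). It had 6.93 and 6.51 CPM in fibroblasts, 8.00 and 0 in myofibroblasts and 11.2 and 6.88 in pericytes, and the macrophage and ILC2 gates had no count (4.55 ± 0.92, adjusted p = 1.49e-05). The OVA myofibroblast sum was 0, so the groups overlapped. A far more open region, picked after its values were seen, lay 40.0 kb upstream (chr11:85845970-85846879, intergenic). It had 60.4 and 69.4 CPM in fibroblasts, 20.0 and 13.1 in myofibroblasts and 61.4 and 80.2 in pericytes, and at most 3.21 CPM in any other sum. The difference was 4.28 ± 0.32 (SE, adjusted p = 2.67e-38) with no overlap. Among the stromal gates, this region was higher in fibroblasts (1.24 on the log2 scale, adjusted p = 7.87e-04) and lower in myofibroblasts (-2.24, adjusted p = 2.31e-05).

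The upstream regions of Tbx4 included several that were open in all gates. At 41.9 kb upstream, values ran from 9.41 CPM in OVA AT1 nuclei to 42.5 CPM in PBS fibroblasts, and the difference was 0.89 (adjusted p = 3.45e-04). This passed the test with a small difference, whereas the neighbour at 40.0 kb upstream was nearly closed outside the stroma. At 93.5 kb upstream the AT2 gate was highest, with 17.0 and 14.2 CPM, and at 73.8 kb upstream the macrophage gate, with 14.5 and 15.8 CPM. The RNA of Tbx4 stood at 181 (PBS) and 179 CPM (OVA) in fibroblasts, 395 and 289 in myofibroblasts and 218 and 290 in pericytes, with at most 13.0 CPM in any other gate.

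**Figure D3:**
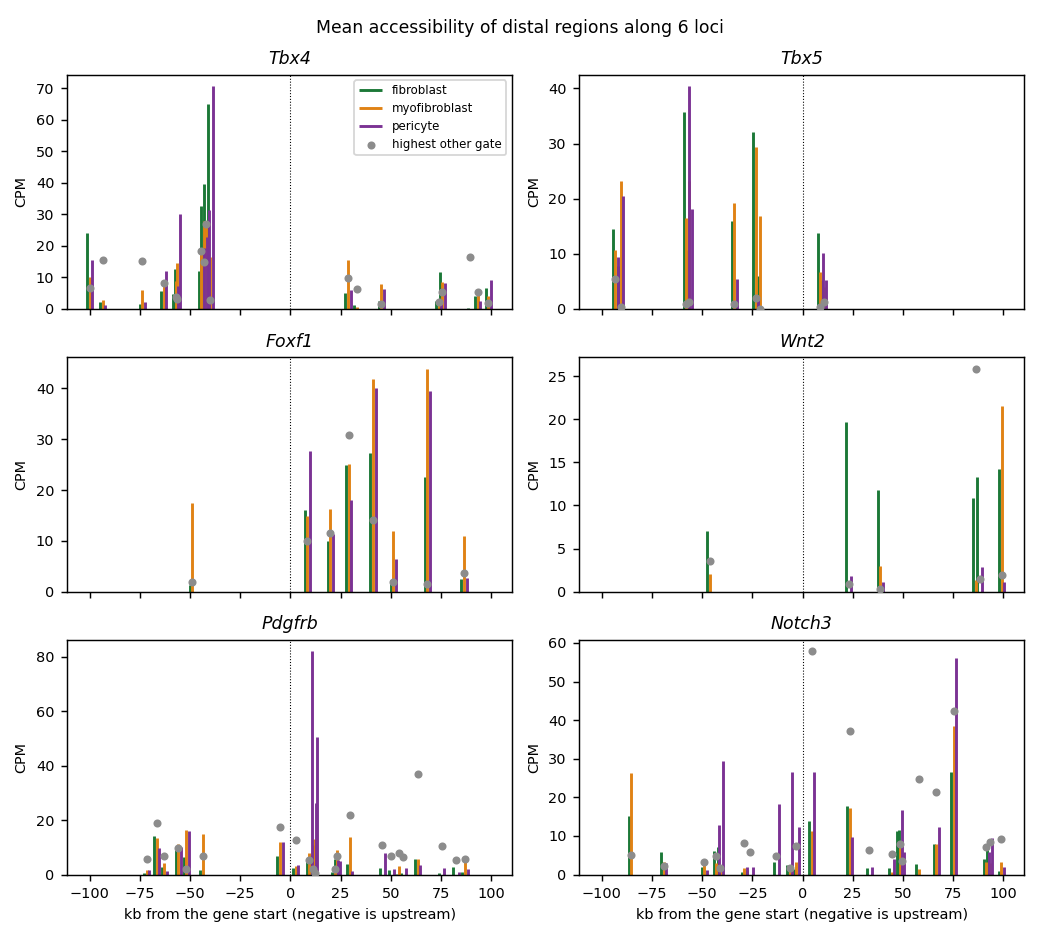
Mean accessibility over both libraries (CPM) of each distal region along 6 loci, by distance from the gene start in kb. Bars are the 3 stromal gates and grey points the highest of the other gates. The bars stand far above the points at 40.0 kb upstream of Tbx4, over most of Tbx5 and at 68.2 kb downstream of Foxf1, and the pericyte bars stand out at 9.4 and 12.1 kb downstream of Pdgfrb.

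Around Foxf1, 4 of 8 regions were higher in the stromal gates, and for 3 of these the nearest start was Foxl1, another forkhead gene of the mesenchyme. The largest difference was 68.2 kb downstream (chr8:121152022-121153271, in an intron of the transcript Gm20388, nearest start Foxl1). It had 20.0 and 24.9 CPM in fibroblasts, 32.0 and 55.9 in myofibroblasts and 44.6 and 34.4 in pericytes. The other gates reached at most 3.14 CPM. The difference was 6.52 ± 0.47 (SE, adjusted p = 1.13e-40) with no overlap. The region 41.2 kb downstream was stromal by a smaller margin (2.24 ± 0.27, adjusted p = 3.20e-15), with between 26.5 and 44.6 CPM in the stromal gates and between 3.14 and 14.8 in the others. The region 48.8 kb upstream was a myofibroblast region, with 18.7 and 16.4 CPM there, 1.54 and 1.20 in fibroblasts and 0 in pericytes in both libraries (5.75 above the other stromal gates, adjusted p = 0.0378). This call was lost with 5 panel UMIs and with the study's filter on counts per nucleus. These 2 myofibroblast sums rest on few counts, since 1 count is worth 1.33 CPM in the PBS gate and 1.64 in the OVA gate.

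Around Tcf21, 3 of 8 regions were higher in the stromal gates. The largest difference was 48.5 kb upstream (chr10:22868063-22869221, intergenic), with 17.7 and 19.2 CPM in fibroblasts, 5.33 and 6.57 in myofibroblasts and 11.2 and 6.88 in pericytes. The other gates reached at most 1.26 CPM (5.73 ± 0.86, adjusted p = 1.21e-09), and the groups did not overlap. The region 99.9 kb upstream (chr10:22919558-22920658, intergenic) was open in fibroblasts at 14.2 and 13.7 CPM and had no count in myofibroblasts or pericytes. It was at least 12.9-fold higher in fibroblasts than a floor of 3 counts over those 2 gates, and higher by the test among stromal gates (adjusted p = 7.96e-05). Its stromal difference did not pass (adjusted p = 1), again with 2 of the 3 stromal gates at 0. The fibroblast call was lost under DESeq2. Tcf21 RNA had the same order, at 221 and 215 CPM in fibroblasts, 0 and 15.6 in myofibroblasts and 0 and 44.6 in pericytes.

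Around the ligand and fibroblast genes, 7 of 25 regions were higher in the stromal gates and none was lower, beside 13.1% and 9.41% of all distal regions. Wnt2 encodes a Wnt ligand of the early lung mesenchyme, Fgf10 a growth factor for the epithelium, Pdgfra a receptor of fibroblasts and myofibroblasts, and Col1a2 a chain of type I collagen. Summed over their regions, the log2 ratios of stromal over other gates were 1.27 (PBS) and 1.78 (OVA) for Wnt2, 1.42 and 1.85 for Col1a2 and 0.35 and 0.52 for Pdgfra. Within 50 kb the mean ratio of Wnt2 was 3.45 (1.52 in the full window). The single region of Fgf10 had too few counts outside fibroblasts for a ratio to be read.

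Around Wnt2, 2 of 6 regions were higher in the stromal gates and 5 were higher in fibroblasts than in the other stromal gates. The fibroblast call was kept under 12 of 12 alternatives at 23.0 and 86.4 kb downstream, but lost under 5 at 38.7 kb downstream and 6 at 46.3 kb upstream. The largest stromal difference was 38.7 kb downstream (chr6:17991435-17992488, in an intron of Wnt2). It had 12.3 and 11.3 CPM in fibroblasts, 2.67 and 3.29 in myofibroblasts and 0 and 2.29 in pericytes (5.49 ± 1.35, adjusted p = 5.25e-04). Another intronic region, 23.0 kb downstream (chr6:18007195-18008338), had 21.5 and 17.7 CPM in fibroblasts, 0 in myofibroblasts in both libraries and 3.72 and 0 in pericytes. Its fibroblast difference was 6.45 (adjusted p = 2.07e-05). The region 86.4 kb downstream was open in 2 lineages, with 30.6 and 21.1 CPM in AT2 cells, 11.5 and 14.1 in AT1 cells and 11.5 and 10.2 in fibroblasts, but at most 2.67 in the other stromal sums (fibroblast difference 5.60, adjusted p = 1.07e-04). Wnt2 RNA was 194 and 187 CPM in fibroblasts and at most 8.91 CPM in any other gate, and 4 of the 6 distal regions were highest in the same gate as the RNA.

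The Fgf10 region lay 25.2 kb downstream (chr13:118739407-118740517, in an intron of Fgf10). It had 6.54 (PBS) and 2.53 CPM (OVA) in fibroblasts, from 34 and 21 counts, and no count in myofibroblasts or pericytes. Fibroblasts were at least 3.76-fold above a floor of 3 counts over those 2 gates, but the difference did not pass (adjusted p = 0.0571). Fgf10 RNA was 200.3 and 259 CPM in fibroblasts.

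Beside 13.1% of all distal regions, 1 of 9 regions around Pdgfra was higher in the stromal gates. It lay 54.3 kb downstream (chr5:75209568-75210732, intergenic), with 12.1 and 11.9 CPM in fibroblasts, 5.33 and 3.29 in myofibroblasts and 3.72 and 4.58 in pericytes, and at most 3.25 CPM elsewhere (3.19 ± 0.90, adjusted p = 3.12e-03). A fibroblast region lay 88.9 kb upstream (chr5:75062934-75063936, intergenic, nearest start Gsx2). It had 16.5 and 14.5 CPM in fibroblasts and no count in myofibroblasts or pericytes, which is at least 14.1-fold over a floor of 3 counts (adjusted p = 3.24e-05, lost under DESeq2). A pair of regions was highest in ILC2s, with 24.9 and 25.3 CPM at 85.1 kb upstream and 12.5 and 11.7 CPM at 98.9 kb downstream. Neither had a stromal sum above 5.39 CPM. Pdgfra RNA was higher in myofibroblasts, at 972 and 782 CPM, than in fibroblasts, at 125 and 120 CPM, whereas the summed distal regions had 30.7 and 32.9 CPM in myofibroblasts and 63.1 and 58.2 in fibroblasts. RNA and distal accessibility were thus in opposite order between these gates.

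Around Col1a2, 4 of 9 regions were higher in the stromal gates. The largest difference was 17.0 kb upstream (chr6:4488055-4488895, intergenic), with 13.7 and 14.6 CPM in fibroblasts, 9.33 and 16.4 in myofibroblasts and 3.72 and 4.58 in pericytes. The other gates reached at most 1.70 CPM (5.41 ± 0.91, adjusted p = 8.04e-08), with no overlap. Col1a2 RNA followed the same order by mean, at 1466 and 1507 CPM in fibroblasts, 1235 and 938 in myofibroblasts and 664 and 522 in pericytes. A pair of regions 88.0 and 86.3 kb upstream were also higher (3.89 and 4.18, adjusted p = 6.15e-07 and 8.51e-09).

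Around the myofibroblast and smooth muscle genes, 3 of 29 regions were higher in the stromal gates and 1 was lower, beside 13.1% and 9.41% of all distal regions. Acta2 and Myh11 encode smooth muscle actin and myosin heavy chain, and Hhip a membrane antagonist of Hedgehog ligands. The summed log2 ratios were -0.05 (PBS) and -0.15 (OVA) for Acta2, 0.40 and 0.19 for Myh11 and -2.20 and -1.72 for Hhip. Over the alternatives the mean ratio of Acta2 ran from -0.17 to -0.05. That of Hhip was -0.40 within 50 kb (-1.96 in the full window). For Myh11 the ratio depended on the regions taken, at 1.99 within 50 kb and -0.0012 more than 5 kb from every gene start (0.30 with all regions). The RNA of all 3 genes was highest in a stromal gate.

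The Myh11 region 5.4 kb upstream (chr16:14296178-14297172, intergenic) had 17.9 and 18.0 CPM in fibroblasts, 8.00 and 11.5 in myofibroblasts and 7.44 and 2.29 in pericytes. The other gates reached at most 1.08 CPM (4.92 ± 0.83, adjusted p = 1.06e-07), with no overlap. Its highest gate was thus not the gate with the most Myh11 RNA, which was 420 and 477 CPM in myofibroblasts and 20.4 and 19.1 in fibroblasts. An intronic region 32.4 kb downstream was highest in pericytes, with 14.9 and 20.6 CPM in pericytes, 5.33 and 0 in myofibroblasts and 2.12 and 2.29 in fibroblasts. It was higher in the stromal gates than in the others (3.18, adjusted p = 2.57e-03), and its pericyte difference from the other stromal gates did not pass. The stromal call was lost with the filter per nucleus and could not be tested at 90% or with a minimum of 100 counts. The region 61.5 kb upstream (chr16:14352369-14353295, intergenic, nearest start Abcc1) was the 1 region lower in the stromal gates (-4.59 ± 1.40, adjusted p = 6.83e-03). It had 11.0 and 14.0 CPM in macrophages and 5.42 and 3.79 in ILC2s, and no count in myofibroblasts or pericytes.

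Beside 13.1% of all distal regions, 1 of 14 regions around Acta2 was higher. It lay 90.2 kb upstream on the side of the death receptor gene Fas (chr19:34345293-34346285, intergenic, 3.34 ± 1.27, adjusted p = 0.0377). This call was also lost with nuclei counted and with the filter per nucleus. It was weakly open, with 5.00 and 4.82 CPM in fibroblasts, 2.67 and 0 in myofibroblasts and 3.72 and 4.58 in pericytes. Regions nearer the gene were highest in macrophages, with 27.0 and 21.5 CPM at 14.9 kb upstream, 18.8 and 15.3 at 7.0 kb upstream and 20.0 and 13.7 at 6.8 kb downstream. The stromal sums at these 3 regions reached at most 8.00 CPM. Acta2 RNA itself was 264 and 235 CPM in myofibroblasts and 291 and 223 in pericytes, so pericytes were higher in the PBS library. In macrophages it was 9.63 and 1.99 CPM, so the macrophage openness stood beside little RNA of the gene.

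Around Hhip, no region was higher in the stromal gates. The regions 62.6 and 59.8 kb upstream were AT2 regions, with 31.0 and 40.1 CPM and 33.8 and 30.3 CPM in that gate and at most 2.29 CPM in any stromal sum. Their stromal differences did not pass, at -1.64 and -2.13 (adjusted p = 1 for both). The contrast averages log values over gates, and neither region had a count in PBS pericytes or OVA macrophages. At 62.6 kb upstream, myofibroblasts and macrophages had no count in either library. The test thus could not judge the AT2 level of these regions. The intronic region 37.3 kb downstream had 8.08 and 8.92 CPM in fibroblasts, 2.67 and 0 in myofibroblasts and 0 in pericytes (fibroblast difference 5.47, adjusted p = 0.0147). This call was lost at 90% of panel UMIs and with the filter per nucleus. Hhip RNA was 1548 and 1314 CPM in myofibroblasts and 12.4 and 11.4 in AT2 cells. No Hhip region had its highest level in the gate with the most Hhip RNA.

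Around the pericyte genes, 9 of 44 regions were higher in the stromal gates and none was lower, beside 13.1% and 9.41% of all distal regions. Pdgfrb is the receptor by which pericytes respond to endothelial PDGF, Notch3 the Notch receptor of mural cells, and Trpc6 a cation channel. The summed log2 ratios were 0.53 (PBS) and 0.91 (OVA) for Pdgfrb and 0.11 and 0.28 for Notch3 (for Pdgfrb the mean was 0.72, and 1.38 within 50 kb), and both windows also hold regions inside other genes.

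Pdgfrb had 5 of 22 regions higher, beside 13.1% of all distal regions. The most open lay 9.4 kb downstream in an intron of the gene, with 83.7 and 80.2 CPM in pericytes, 4.00 and 11.5 in myofibroblasts and 6.35 and 4.34 in fibroblasts. It was higher in the stromal gates (4.67 ± 0.64, adjusted p = 1.36e-11) and in pericytes among them (3.60 ± 0.51, adjusted p = 1.31e-08). The ILC2 gate had 7.04 and 3.79 CPM, above some stromal sums. The largest stromal difference was 12.1 kb downstream in another intron, with 52.1 and 49.3 CPM in pericytes, 8.00 and 18.1 in myofibroblasts and 5.00 and 2.05 in fibroblasts. The other gates reached at most 0.63 CPM (6.59 ± 0.79, adjusted p = 8.67e-15), with no overlap, and the pericyte difference was 2.81 (adjusted p = 3.80e-03, lost with the filter per nucleus). Pdgfrb RNA was 1204 and 900 CPM in pericytes and at most 98.8 in any other gate, so RNA and these introns shared the highest gate.

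Away from the gene body the patterns were mixed. The regions 55.8 and 51.9 kb upstream were also among those higher in the stromal gates. The call at 51.9 kb was kept under 12 of 12 alternatives, and that at 55.8 kb was lost under 7. The region 43.7 kb upstream, in an intron of the transporter gene Slc6a7, had 13.3 and 16.4 CPM in myofibroblasts and no count in pericytes (myofibroblast difference 5.33, adjusted p = 0.0302). This call was lost with nuclei counted, with 5 panel UMIs and with the filter per nucleus, and at 90% the difference was -1.93 and did not pass. Its AT2 values were 6.99 and 6.63 CPM, above those of fibroblasts. Regions towards Csf1r, the macrophage colony-stimulating factor receptor, were macrophage regions, of which the one 63.5 kb downstream had 34.9 and 39.1 CPM in macrophages and at most 11.5 in any other sum.

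Notch3 had 4 of 22 regions higher, beside 13.1% of all distal regions. Regions 13.0 and 6.5 kb upstream were pericyte regions, with 20.5 and 16.0 CPM and 18.6 and 34.4 CPM in that gate, against at most 4.34 and 3.46 CPM in the other stromal sums (5.25 and 3.95, adjusted p = 0.0357 and 8.24e-03). Both calls were lost with the filter per nucleus, and that at 13.0 kb also with 5 panel UMIs and with doublets kept. Notch3 RNA was 591 and 709 CPM in pericytes.

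Other regions of this window took other patterns. Within Notch3, the region 4.5 kb downstream was most open in the epithelium, with 48.2 and 60.3 CPM in AT2 and 59.2 and 56.5 in AT1 cells, against 22.3 and 30.9 in pericytes. The most counted of all 141 regions, 75.4 kb downstream, was open in every gate at between 17.2 and 58.4 CPM and passed with a difference of 0.47 (adjusted p = 0.0366), a call lost under 8 of 12 alternatives.

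Among the stromal gates, 11 regions were higher and 2 lower in fibroblasts than in the other 2 gates, beside 8.09% and 0.372% of all distal regions. In myofibroblasts 3 were higher and 1 lower, beside 0.767% and 0.592%. In pericytes 5 were higher and 2 lower, beside 0.423% and 0.951%. The median difference over all distal regions was itself 1.03 in the fibroblast contrast and -0.83 in the pericyte contrast, and over the 141 regions it was 0.72 and -0.37. The fibroblast gate was the deepest, and the part of depth in these medians was not tested. The fibroblast count was near its background. Over the alternative settings the higher counts ran from 6 to 20 in fibroblasts, from 0 to 5 in myofibroblasts and from 0 to 7 in pericytes. The regions higher in pericytes were 3 of Notch3 and 2 of Pdgfrb, and those higher in fibroblasts included 5 of Wnt2.

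The 43 higher regions were spread over the windows. They were 10 of 37 regions within 25 kb, 13 of 36 between 25 and 50 kb and 20 of 68 beyond. On the upstream side 22 of 63 were higher and on the downstream side 21 of 78. Of the regions in the body of the locus gene 7 of 26 were higher, and of those nearest to its start 18 of 54. By annotation 24 of 73 intergenic, 18 of 60 intronic and 1 of 8 exonic regions were higher. These shares were not tested against each other. The share higher among all distal regions was 13.1%, and it was not split by distance, side or annotation.

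The chromatin at the gene starts was compared with the distal regions of the same loci. Of the 15 genes, 14 had at least 1 shared region within 1 kb of a start, 20 regions in all, and Tbx5 had none. Of these, 18 were higher in the stromal gates and none lower, beside 18.0% and 9.57% of all tested regions within 1 kb of a gene start. The 2 start regions of Pdgfra did not pass. The summed start regions of Pdgfra had 52.9 and 50.2 CPM in fibroblasts and also 43.3 and 29.0 in ILC2s. The Foxf1 start had 94.8 and 123 CPM in pericytes against 51.4 and 60.7 in fibroblasts. The starts of Acta2, Myh11 and Hhip were higher in the stromal gates by 2.37, 1.93 and 1.59 on the log2 scale (adjusted p = 5.12e-12, 3.49e-08 and 4.34e-03). Of the distal regions of these 3 genes, 3 of 29 were higher, beside 13.1% of all distal regions.

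RNA of the 15 genes was in each case highest in a stromal gate. Trpc6, which had no distal region, had 861 (PBS) and 829 CPM (OVA) in pericytes, and Meox2, also without one, had 84.0 and 97.4 CPM in fibroblasts. Tbx5 RNA was 428 and 219 CPM in myofibroblasts, 270 and 192 in pericytes and 113 and 117 in fibroblasts, and its summed distal regions had 131 and 169, 141 and 81.4, and 135 and 148 CPM in the same gates. The summed distal regions had their highest mean in a gate outside the stroma for Pdgfra (ILC2), Acta2 and Myh11 (macrophage) and Hhip (AT2), as the map of RNA and accessibility shows. For Myh11 this held in the OVA library, whereas in the PBS library myofibroblasts were highest, at 49.3 CPM (95% exact Poisson interval 34.7 to 68.0) against 45.1 (37.2 to 54.1) in macrophages. In the OVA library macrophages had 53.3 CPM (46.3 to 61.1) and fibroblasts 49.4 (44.7 to 54.4). For Pdgfra, ILC2s had 69.9 (58.3 to 83.0) and 66.6 (57.9 to 76.2). Fibroblasts had 63.1 (56.5 to 70.3) and 58.2 (53.1 to 63.6) there. In each of these pairs the intervals overlapped.

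**Figure D4:**
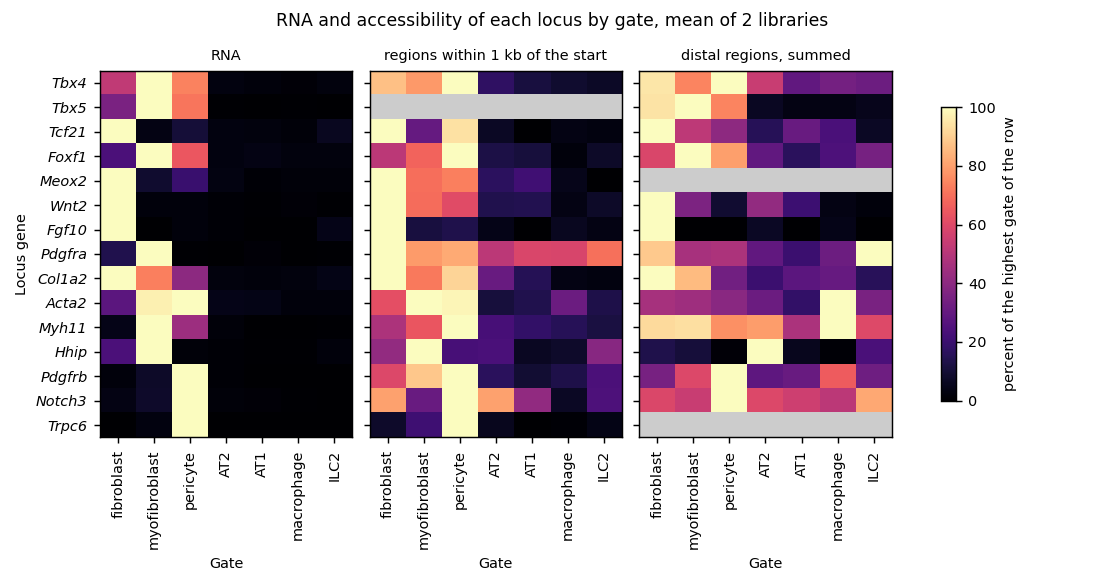
RNA, accessibility at the start and summed distal accessibility of the 15 loci (rows) by gate (columns), each as percent of the highest gate of its row and as the mean of both libraries. Grey rows have no region. RNA is highest in a stromal gate for every gene, whereas the distal sum peaks in ILC2s for Pdgfra, in macrophages for Acta2 and Myh11 and in AT2 cells for Hhip.

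The maternal groups were compared within each stromal gate. With 1 library per group there is no test between them, and the 95% intervals are exact conditional binomial intervals that cover counting error only and treat the paired ends of a fragment as independent, so they are too narrow. Over all 141 regions, OVA over PBS was 0.02 on the log2 scale in fibroblasts (-0.03 to 0.07), 0.05 in myofibroblasts (-0.10 to 0.21) and -0.04 in pericytes (-0.18 to 0.11). Each interval held 0. The covered peak length was 127874 bp (PBS) and 126850 bp (OVA). The libraries also differed in quality, with 28.6% (PBS) and 18.6% (OVA) mitochondrial UMIs in the fibroblast gate. Median UMIs per nucleus in that gate were 1040 and 1935. The part of quality in the ratios was not tested.

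By locus, 30 of 36 intervals held 0, 2 lay above and 4 below. Those above were Myh11 in fibroblasts (0.25, from 0.01 to 0.49) and Pdgfrb in myofibroblasts (0.45, from 0.03 to 0.87). Those below were Pdgfrb in fibroblasts (-0.36, from -0.53 to -0.19), Tbx4 in myofibroblasts (-0.87, from -1.27 to -0.48), Tbx5 in pericytes (-0.80, from -1.28 to -0.31) and Fgf10 in fibroblasts (-1.37, from -2.23 to -0.54). Per kb of peak the 6 values were 0.24, 0.54, -0.27, -0.87, -0.87 and -1.04. For Pdgfrb the fibroblast and myofibroblast values thus pointed in opposite directions, and the Tbx4 value rests on 178 PBS and 79 OVA counts.

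In fibroblasts, the gate with the most counts, 99 regions had at least 30 counts. Of these, 4 gained by 2-fold or more from PBS to OVA and 3 lost by as much, beside 5.71% and 3.10% of all distal regions with as many counts. The 4 were 53.9 kb downstream of Myh11 (5.20 and 11.9 CPM), 42.0 kb downstream of Tcf21 (2.50 and 6.51), 73.9 kb downstream of Tbx4 (1.15 and 3.98) and 39.2 kb downstream of Col1a2 (1.35 and 4.82). The 3 lower were the Fgf10 region, the Pdgfrb region 12.1 kb downstream (5.00 and 2.05) and the Pdgfra region 52.3 kb downstream (4.43 and 1.93). All 7 were weakly open, and the regions above 20 CPM in both libraries lay within a 2-fold band.

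**Figure D5:**
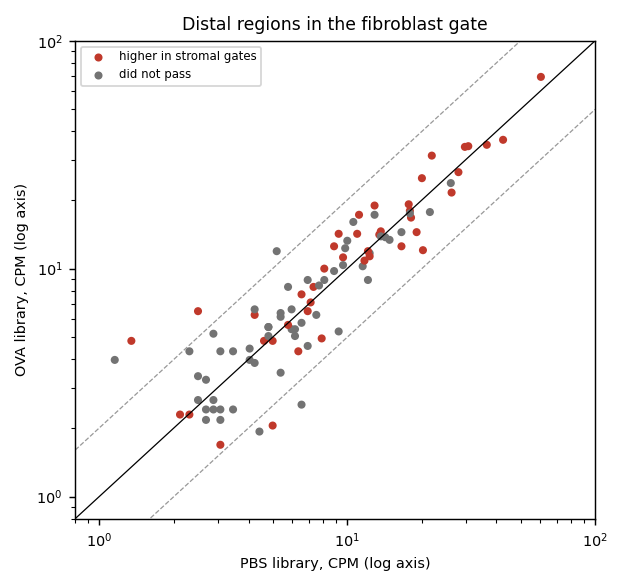
Accessibility in the fibroblast gate of the 99 distal regions with at least 30 counts there, in the PBS (x) and OVA library (y), both in CPM on log axes. Red regions were higher in the stromal gates, grey ones did not pass, the solid line is equality and the dashed lines are 2-fold. The 7 points outside the dashed lines are at most 11.9 CPM in either library.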

How the data were processed

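The authors deposited raw counts from Cell Ranger ARC 2.0.1 on mm10 (GRCm38): whole UMI counts per gene and transposition counts per peak, with peaks called in each library separately. Nuclei were kept from 200 genes upwards and up to 60% mitochondrial UMIs, and doublets were removed by their likeness to simulated ones. A gate needed at least 3 panel UMIs from at least 2 genes and 75% of all panel UMIs. Its sub-gates needed 2 UMIs and 75%. Mast cells had under 50 nuclei and were left out, as were stromal nuclei that met no sub-gate.

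Overlapping peaks (by 1 base or more) of both libraries formed shared regions. Counts were summed per gate and library, 14 sums. edgeR 4.0.16 (R 4.3.3) fitted gate and library by its quasi-likelihood test with TMM, over regions with at least 30 counts, with Benjamini-Hochberg adjustment at 0.05. The spread, estimated over all regions with 6 residual degrees of freedom, is that of gate differences between 1 PBS and 1 OVA library. On simulated counts over 97750 regions, with 100 changed by 2-fold and 100 by 4-fold in the stromal gates, the stromal test called 58 and 100 of them and 5 unchanged regions. The changed regions were drawn only from regions with more counts than the median of 152 of the members. The simulated spread was smaller than the fitted one, and the gates otherwise had equal means. Recovery for regions with fewer counts or gates at 0 was not tested. SEs are the log2 difference divided by the normal quantile of its p.

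Distances run from the nearest edge of the span of starts to the middle of a region, and places come from GENCODE M21. Regions were named by rule: per locus the largest called stromal difference (otherwise the most counts), the called lower regions, and up to 5 called per stromal gate. Of the regions so named, 2 upstream of Notch3 are not reported here. The members, panels, lists and rule were chosen with earlier results of these data known, and the windows at starts and the exon were added after the values were seen. No genome was used here, so motifs were searched in RefSeq promoters and not in peaks.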

Additional observations from a re-analysis of the deposited data

How the results depend on the processing

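Over 16 alternatives the number of regions higher in the stromal gates ran from 15 to 47 (43 as reported), and the median log2 difference from 0.58 to 1.22, always above 0. With 90% of panel UMIs required, 15 of 120 tested regions were higher, and some gates then held under 50 nuclei. The share of all distal regions was not computed for the alternatives. Within 50 kb of the genes the count was 23 of 73. The count lower (1) was 2 under DESeq2 1.42.0, with a minimum of 100 counts, with nuclei in place of counts and with 2 panel UMIs, and 0 at 90% and within 50 kb. Calls among stromal gates moved more. In fibroblasts 11 became 6 under DESeq2, 7 at 90% and with the study's filter on counts per nucleus, 18 without a count filter or with 2 panel UMIs, and 20 with nuclei counted. In myofibroblasts 3 became 5 when those gates were fitted alone and 0 with nuclei counted, with 5 panel UMIs, at 90% and with the filter per nucleus. In pericytes 5 became 3 with 5 panel UMIs, 1 with the filter per nucleus and 0 at 90%. The cause was not tested.

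The summed stromal log2 ratio of all regions (0.92) was 1.11 within 50 kb and from 0.88 to 0.97 when 1 library was left out, and the regions with a higher mean in the stromal gates (91) numbered from 86 to 94. OVA over PBS in fibroblasts (0.02) was -0.074 relative to the median of all distal regions, and in pericytes (-0.04) it was 0.34 at 90%. Of the 13 stromal calls of regions named by rule, 8 were lost under at least 1 of 12 alternatives, in 11 losses. Among the stromal gates 16 of 18 such calls were lost under at least 1, in 39 losses, mostly at 90% and with the filter per nucleus. The myofibroblast difference 43.7 kb upstream of Pdgfrb was -1.93 at 90%. The 3 stromal differences that gained a call, all under DESeq2, were at 23.0 kb downstream of Wnt2, 48.8 kb upstream of Foxf1 and 6.5 kb upstream of Notch3.

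No paired analysis was possible because a group is a single library, which its replicate number only names. The alternative of shorter motif windows was not run, since peak sequences were not read. With 1 library left out, no test remained. Adding regions with only some qualifying peaks added none.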
